A study of Mus musculus with 6 samples.

Results

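The troponins and tropomyosins, the regulatory proteins of the sarcomeric thin filament, were followed in hearts of wildtype (WT) and *Pkm1*-knockout (KO) mouse embryos at embryonic day 18.5. The genes were chosen by name: *Tnnt1*, *Tnnt2*, *Tnnt3*, *Tnni1*, *Tnni3*, *Tnnc1*, *Tpm1*, *Tpm2*, *Tpm3* and *Tpm4*. Of these 10 genes, 9 have a row in the count table of 13809 genes, and *Tnnt3* was not analysed here. *Pkm1* is the splice form of the pyruvate kinase gene *Pkm* that is prominent in muscle and heart, and the KO line carries a small Cas9-made deletion in the exon specific to this form. The line was made in zygotes of BDF1 mice, a cross of C57BL/6J and DBA/2, and the deletion is in the germline, so it is not limited to cardiomyocytes. Total RNA depleted of ribosomal RNA was sequenced from 3 WT and 3 KO samples, labelled as heart and described in the study's results as ventricular. The p-values set the difference between groups against the spread between samples of a group. The labels give neither litter nor dissection day, so a part of either in that difference cannot be assessed.

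Troponin is a complex of 3 kinds of subunit that sits on tropomyosin along the actin filament. Troponin C binds calcium, troponin I holds the filament in its inhibited state, and troponin T ties the complex to tropomyosin, a coiled coil that covers the myosin-binding sites of actin at rest. Troponin I and troponin T each have cardiac, slow skeletal and fast skeletal genes, whereas the heart and slow muscle share a troponin C gene and fast muscle uses another. The fetal heart makes slow skeletal troponin I, from *Tnni1*, beside cardiac troponin I, from *Tnni3*, and exchanges the first for the second around and after birth.

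The WT libraries held 15597756 to 19875546 counts each, the KO libraries 15567624 to 18577404. Values are given in CPM, the count of a gene scaled to a common library size after TMM normalization. The count columns carry no replicate numbers, and the libraries of each genotype are called a, b and c here in column order. *Pkm*, whose count covers both splice forms, was at 1294, 1296 and 1366 CPM in WT and at 547, 530 and 549 CPM in KO, a log2 fold change of -1.28 ± 0.0269 (SE, adjusted p = 1.47e-23). This matches the labels, since all KO libraries were below all WT libraries. WT c stood apart from the other WT libraries: a chi-square statistic per degree of freedom over genes was 3.76 and 3.24 for its pairs with WT a and WT b, against 1.56 to 1.88 for the other 4 pairs within a group. Results are therefore also given without WT c where it moved them. *Ddx3y*, a gene on the Y chromosome, had 1314 to 1866 counts in each WT library and 0 in each KO library, which allows up to 3 counts per library, and *Xist*, which is expressed from the inactive X chromosome, had 73 to 102 counts in WT and 36933 to 42574 in KO. Sex and genotype therefore cannot be told apart in these libraries.

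The promoters of the genes that the results turn on are shown here to place them beside the transcript values that follow. The sequences are from RefSeq on build GRCm38.p6 and hold the 250 bases before an annotated transcript start, written 5′ to 3′ on the strand of the gene. Capitals mark an MCAT element (CATTCC, the motif bound by TEAD factors), an NFY box (CCAAT) or a GATA motif (GATAA) on either strand, and a match on the opposite strand shows the reverse complement of these letters.
*Tnnt2*, cardiac troponin T, first annotated start, chr1:135836084-135836333, plus strand: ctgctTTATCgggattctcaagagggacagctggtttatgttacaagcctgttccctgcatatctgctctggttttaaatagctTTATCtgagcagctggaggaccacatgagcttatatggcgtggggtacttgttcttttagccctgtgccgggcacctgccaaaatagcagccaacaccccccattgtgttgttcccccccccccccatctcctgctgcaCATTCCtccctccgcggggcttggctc
*Tnni3*, cardiac troponin I, chr7:4522529-4522778, minus strand: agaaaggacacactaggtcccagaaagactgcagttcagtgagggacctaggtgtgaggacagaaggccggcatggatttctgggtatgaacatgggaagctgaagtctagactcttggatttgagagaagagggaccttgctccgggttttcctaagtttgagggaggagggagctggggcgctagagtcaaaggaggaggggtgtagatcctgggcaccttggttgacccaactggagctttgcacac
*Tnnc1*, cardiac and slow skeletal troponin C, chr14:31208062-31208311, plus strand: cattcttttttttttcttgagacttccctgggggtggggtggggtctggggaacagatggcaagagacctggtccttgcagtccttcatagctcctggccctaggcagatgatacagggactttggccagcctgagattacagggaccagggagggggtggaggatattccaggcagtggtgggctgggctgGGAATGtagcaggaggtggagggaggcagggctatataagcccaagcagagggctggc
*Tpm1*, α-tropomyosin, chr9:67049214-67049463, minus strand: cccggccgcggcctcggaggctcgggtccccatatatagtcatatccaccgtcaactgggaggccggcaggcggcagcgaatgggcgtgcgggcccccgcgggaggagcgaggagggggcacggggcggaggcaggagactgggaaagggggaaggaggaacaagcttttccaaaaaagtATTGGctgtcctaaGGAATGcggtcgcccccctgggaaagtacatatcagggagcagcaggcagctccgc
*Tnni1*, slow skeletal troponin I, first annotated start, chr1:135799171-135799420, plus strand: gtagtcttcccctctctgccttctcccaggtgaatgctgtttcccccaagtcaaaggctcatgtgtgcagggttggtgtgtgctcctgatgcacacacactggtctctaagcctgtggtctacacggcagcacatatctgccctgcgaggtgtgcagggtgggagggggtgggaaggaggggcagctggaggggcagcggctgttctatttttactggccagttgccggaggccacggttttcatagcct

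The MCAT element occurred in 3 of the 12 promoter windows of the 9 genes, and in 12.6% of 32817 mouse promoters of the same length. It lay 27 to 22 bases before the start in *Tnnt2*, 58 to 53 bases before it in *Tnnc1* and 56 to 51 bases before it in *Tpm1*. None of the other 6 genes had these letters in a window. The NFY box was in 2 of the 12 windows, against 33.8% of all promoters: 70 to 66 bases before the start of *Tpm1*, and before a second annotated start of *Tnnt2*. The GATA motif was in 3 of 12 windows (22.6% of all), of *Tnnt2* and *Tpm3*, and the letters TATAAA were in 1 of 12 (12.4% of all), that of *Tnnt1*. The CArG box, the motif of serum response factor, and the MEF2 site were in none of the 12 windows and in 1.47% and 0.509% of all promoters. The marked motifs did not overlap one another. A match of letters is no evidence that a factor binds there.

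Of the 9 genes, 4 were lower in KO past an adjusted p of 0.05 in edgeR's quasi-likelihood test: *Tpm1*, *Tnnt2*, *Tnni3* and *Tnnc1*. Of all 13804 genes tested, 15.7% were lower past this threshold. None of the 9 was higher, against 14.6% of all genes. The estimate was below 0 for all 9, with DESeq2 too, so the count called higher was 0 at any p threshold in either test. The median log2 fold change was -0.14 against 0.0017 over all genes tested. However, the estimate of *Tpm2* turned above 0 when WT c or KO b was left out. The WT and KO libraries did not overlap for 7 of the 9 genes, and for 42.4% of all genes.

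**Figure D1:**
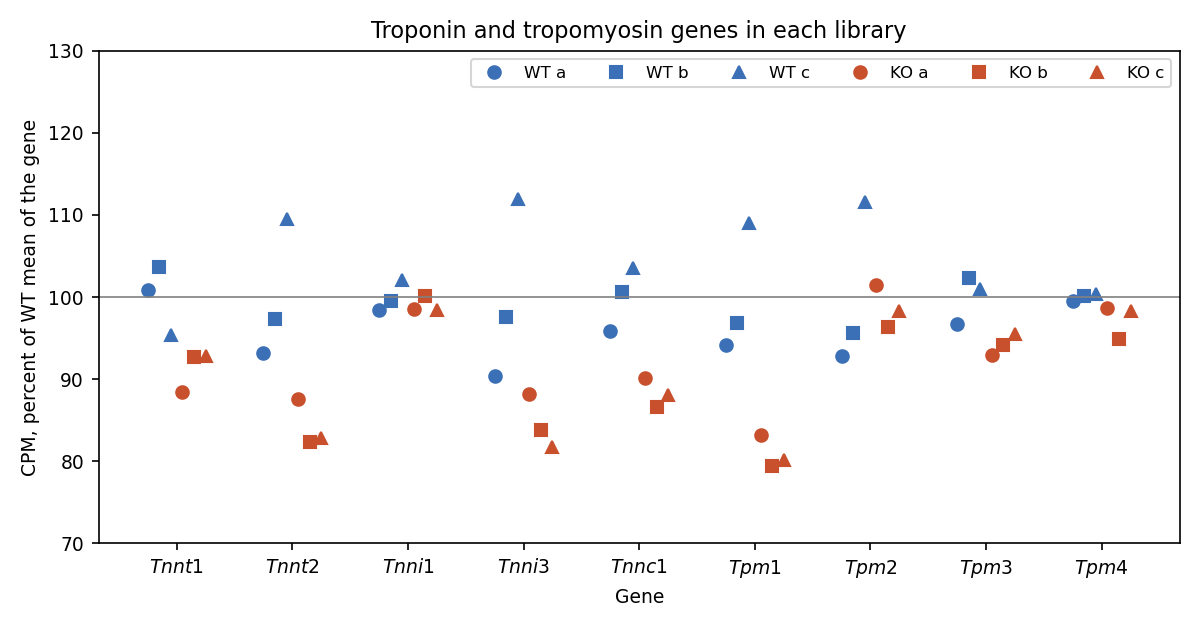
CPM of each troponin and tropomyosin gene in each library, as a percent of the WT mean of that gene (vertical axis). *Tnnt2*, *Tnni3*, *Tnnc1* and *Tpm1* had all KO points (red) below all WT points (blue), WT c (blue triangle) was the highest library for these 4 genes, and *Tnni1* and *Tpm2* overlapped.

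*Tnnt2* encodes cardiac troponin T, the main troponin T of the heart, and lies on chr1:135836354-135852260, plus strand (GRCm38). Its levels were 4566, 4771 and 5366 CPM in WT and 4293, 4038 and 4059 CPM in KO. The highest KO library was below the lowest WT library, and WT c was the highest of all. KO was at 84.3% of WT, with a log2 fold change of -0.25 (95% interval -0.318 to -0.175, adjusted p = 4.13e-06). Without WT c the log2 fold change was -0.18, and the gene was still called.

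*Tnnt1*, which encodes slow skeletal troponin T and lies on chr7:4504570-4516382, minus strand, was far lower. It had 31.3, 32.1 and 29.6 CPM in WT and 27.4, 28.7 and 28.8 CPM in KO. The groups did not overlap, with WT c closest to the KO libraries. The log2 fold change was -0.14 (interval -0.265 to -0.005), and the gene missed the threshold (adjusted p = 0.109).

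The troponin I genes differed from each other in their estimates. *Tnni3* encodes cardiac troponin I, whose extra N-terminal stretch is a target of protein kinase A, and lies on chr7:4518305-4524229, minus strand, 1922 bases from *Tnnt1*. It had 1112, 1200 and 1377 CPM in WT and 1084, 1031 and 1005 CPM in KO. The gap between the lowest WT library (WT a) and the highest KO library (KO a) was small beside the range within WT. KO was at 84.6% of WT, with a log2 fold change of -0.24 (interval -0.332 to -0.151, adjusted p = 0.00014). Without WT c the log2 fold change was -0.15 (adjusted p = 5.19e-08), and without KO c, where the adjusted p was highest of the 6 fits that left out a library, it was -0.22 (adjusted p = 0.0054). DESeq2 gave an adjusted p of 0.0575, so the call was lost with that tool.

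*Tnni1* encodes slow skeletal troponin I, the form typical of the fetal heart, and lies on chr1:135779434-135810989, plus strand, 25364 bases before *Tnnt2*. It had 1114, 1126 and 1156 CPM in WT and 1115, 1134 and 1115 CPM in KO. The groups overlapped and all 6 libraries were close together. The log2 fold change was -0.01 with an interval from -0.063 to 0.035 (adjusted p = 0.703), so that a change as large as the estimate for *Tnni3* lay outside the interval.

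*Tnnc1* encodes troponin C of the heart and of slow muscle, the calcium sensor of the complex, and lies on chr14:31208312-31211729, plus strand. Its levels were 1172, 1231 and 1266 CPM in WT and 1102, 1059 and 1077 CPM in KO. The groups did not overlap, and the spread within each was smaller than for *Tnni3*. KO was at 88.2% of WT, with a log2 fold change of -0.18 (interval -0.236 to -0.125, adjusted p = 9.59e-06). *Nisch*, which overlaps it on the opposite strand, had 593 CPM in WT and 592 CPM in KO. Whether the counting used the strand is not given in the sources used here.

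*Tpm1* encodes α-tropomyosin, the main striated tropomyosin of the mouse heart, and lies on chr9:67022590-67049406, minus strand. It had 2602, 2677 and 3014 CPM in WT and 2300, 2196 and 2215 CPM in KO. All KO libraries were below all WT libraries, and this was the lowest estimate among the 9 genes. KO was at 80.9% of WT, with a log2 fold change of -0.31 (interval -0.374 to -0.236, adjusted p = 7.53e-08). Without WT c it was -0.24.

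The other tropomyosin genes were not called. *Tpm2*, which encodes β-tropomyosin and lies on chr4:43514711-43523765, minus strand, had 110, 113 and 132 CPM in WT and 120, 114 and 116 CPM in KO. Its groups overlapped, WT c was the highest library, and the log2 fold change was -0.01 (interval -0.118 to 0.088, adjusted p = 0.856). *Tpm3*, the source of slow skeletal and of cytoskeletal tropomyosins, lies on chr3:90072649-90100902, plus strand. It had 116, 122 and 121 CPM in WT and 111, 113 and 114 CPM in KO, with no overlap and a log2 fold change of -0.09 (interval -0.166 to -0.006, adjusted p = 0.0948).

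*Tpm4*, which encodes a cytoskeletal tropomyosin in the mouse, lies on chr8:72134975-72153142, plus strand. It had 235, 236 and 236 CPM in WT and 232, 223 and 232 CPM in KO, a log2 fold change of -0.04 (interval -0.105 to 0.027, adjusted p = 0.385). The groups did not overlap although their means lay close together, because the WT libraries were nearly equal. Of the 50-base stretches of annotated *Tpm3* and *Tpm4* transcripts, 23.2% and 11.7% also occur in other annotated genes, among them the *Tpm3* copy *Tpm3-rs7*, so counts of these 2 genes are less certain than those of *Tpm1*, *Tpm2* and *Tnnc1*, which share none. The counts are per gene, and the annotation holds 21 transcripts of *Tpm1*, 16 of *Tpm3* and 15 of *Tnnt2*, so changes in splicing within a gene are not resolved here.

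**Figure D2:**
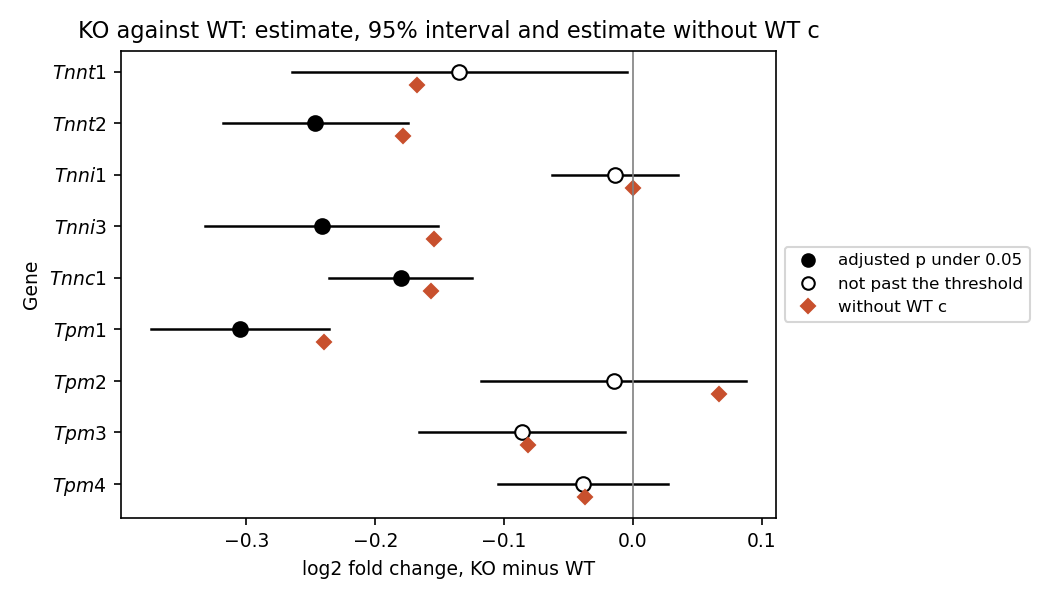
Log2 fold change, KO minus WT (horizontal axis), of each gene with its 95% interval (line), and the estimate without WT c (red diamond). Filled circles passed an adjusted p of 0.05. *Tpm1*, *Tnnt2*, *Tnni3* and *Tnnc1* lie between -0.31 and -0.18, and without WT c the diamonds of *Tnnt2*, *Tnni3* and *Tpm1* move toward 0 while that of *Tpm2* crosses it.

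Ratios between paralogs within a library do not depend on how the libraries were scaled. For each of 5 ratios, the groups were compared by a two-sided exact permutation test over libraries, which cannot give a p below 0.1 with 3 libraries against 3. The count of *Tnni3* over that of *Tnni1* was 0.998, 1.07 and 1.19 in WT and 0.972, 0.909 and 0.901 in KO. The groups did not overlap, with WT a close to KO a. The mean log2 ratio was 0.11 ± 0.13 in WT and -0.11 ± 0.06 in KO (SD), a difference of -0.22 (exact permutation p = 0.1, adjusted over the 5 ratios 0.125). Without WT c the difference was -0.15. The troponin T genes gave no such separation: *Tnnt1* over *Tnnt2* was 0.00685, 0.00674 and 0.00551 in WT and 0.00638, 0.00712 and 0.00709 in KO, and the log2 difference of 0.11 (exact permutation p = 0.5, adjusted 0.5) became 0.01 without WT c.

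Each minor tropomyosin had a higher ratio to *Tpm1* in every KO library than in any WT library. The count of *Tpm2* over that of *Tpm1* was 0.0422, 0.0422 and 0.0438 in WT and 0.0522, 0.0519 and 0.0525 in KO. Libraries of one group were nearly equal in this ratio, WT c included, and the groups lay well apart. The log2 difference was 0.29 between means of -4.55 ± 0.03 and -4.26 ± 0.01 (SD). The log2 ratio to *Tpm1* was higher in KO by 0.22 for *Tpm3* and by 0.26 for *Tpm4*, also without overlap. Without WT c these differences were 0.31 for *Tpm2*, 0.16 for *Tpm3* and 0.20 for *Tpm4*. All 3 tropomyosin ratios had an exact permutation p of 0.1, the smallest this design allows, or 0.125 adjusted over the 5 ratios. These 3 ratios share *Tpm1* and are therefore not separate evidence.

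**Figure D3:**
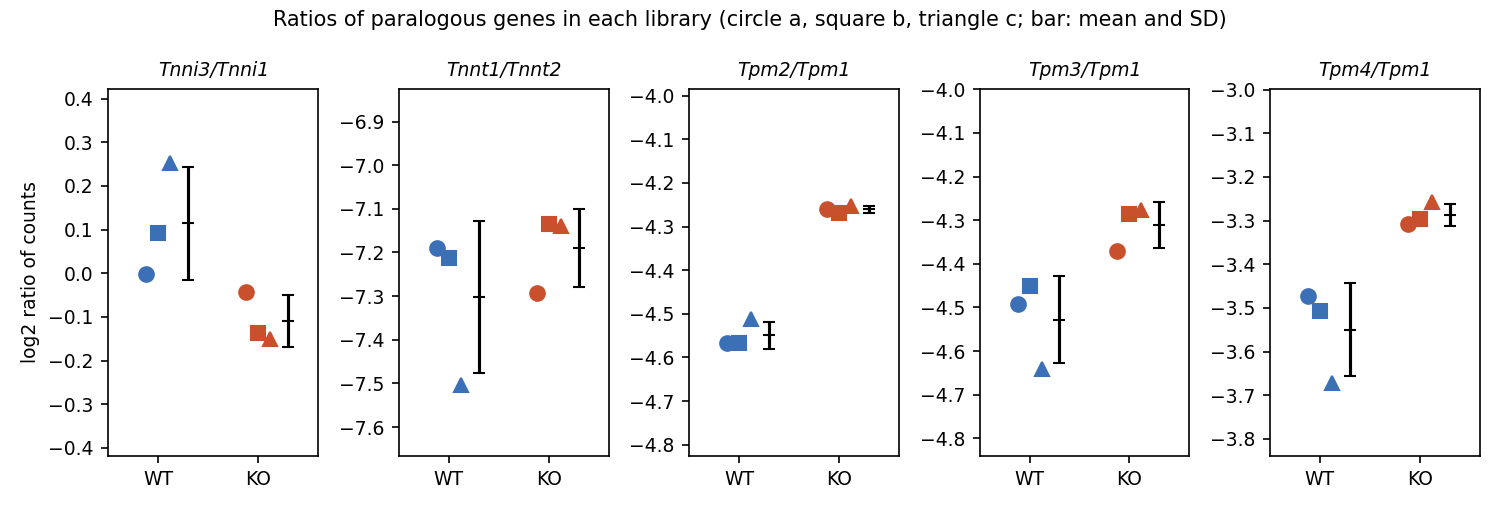
Log2 ratio of counts of paralogous genes in each library, with the mean and SD of each group beside the points; every panel spans the same range of log2 units. The 3 tropomyosin ratios and *Tnni3*/*Tnni1* separate WT (blue) from KO (red), most tightly for *Tpm2*/*Tpm1*, and *Tnnt1*/*Tnnt2* overlaps.

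Levels of different genes were compared as CPM per kilobase of the longest annotated transcript. In WT, *Tnnc1* was highest with 1696 ± 65.6, followed by *Tnnt2* with 1472 ± 125, *Tnni3* with 1348 ± 148, *Tpm1* with 956.5 ± 76 and *Tnni1* with 525.8 ± 10.1 CPM per kilobase (SD, n = 3). The remaining genes were at 110.7 (*Tpm4*), 54.4 (*Tpm2*), 50.4 (*Tpm3*) and 29.3 (*Tnnt1*) CPM per kilobase. The ranges over WT libraries overlapped for *Tnnt2* and *Tnni3*, and for *Tpm2* and *Tpm3*. Within each library, however, *Tnnt2* was above *Tnni3* and *Tpm2* above *Tpm3* on this scale. The same order held in KO, with *Tnnc1* at 1497 ± 29.9, *Tpm1* at 774 ± 19.2 and *Tnni1* at 520.8 ± 5.02 CPM per kilobase. The order depends on the length used: per kilobase of coding sequence *Tnnt2* came first, at 5410 ± 459 in WT, and *Tnni1* (2018 ± 38.8) stood beside *Tnni3* (1943 ± 213).

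**Figure D4:**
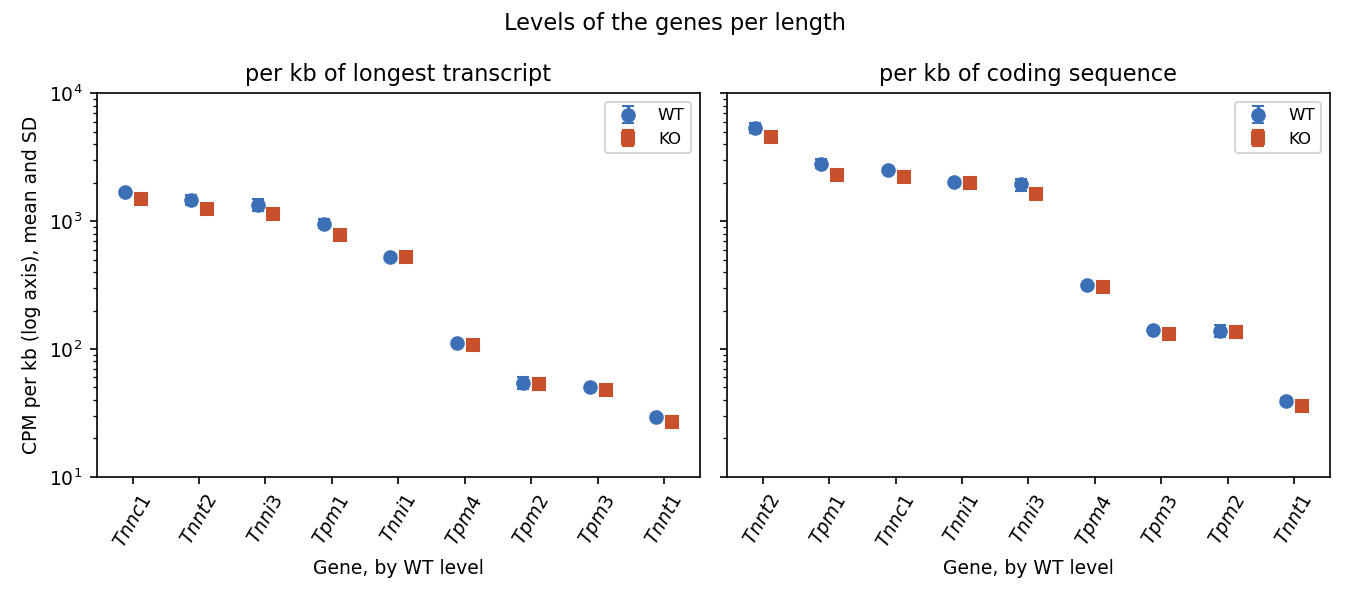
Mean level and SD of each gene in WT (blue) and KO (red), as CPM per kilobase on a log axis, by the longest transcript (left) and by the coding sequence (right). *Tnnt1*, *Tpm2*, *Tpm3* and *Tpm4* stayed below the other 5 genes on both scales, and the order among those 5 differed between the scales.

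On the longest-transcript scale, *Tnni1* made up 28.2% ± 1.79 of the troponin I level in WT and 31.4% ± 0.88 in KO (SD, n = 3). *Tpm1* made up 81.6% ± 0.714 of the tropomyosin level in WT and 78.8% ± 0.284 in KO, and the share of *Tpm4* was 9.47% ± 0.612 in WT and 11.0% ± 0.162 in KO. None of these shares overlapped between the groups. *Tnnt2* held 98.0% of the troponin T level in WT and 97.9% in KO without *Tnnt3*, with overlap. With coding lengths the share of *Tnni1* was 51.1% in WT and 54.9% in KO, so the level of the shares rests on the length. This share follows the ratio of *Tnni3* to *Tnni1* in each library, so another length could not reverse its direction.

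In bulk tissue, fewer cells of a type and less RNA per cell cannot be told apart, so markers of cell types were set beside these values. Of 5 ventricular cardiomyocyte markers, 1 was lower and 3 were higher past the threshold, against 15.7% and 14.6% of all genes tested. Their summed level was 27722 to 29273 CPM in WT and 28573 to 28877 CPM in KO, where the ranges overlap. Relative to this sum, a scale chosen after the data were seen, the log2 difference was -0.26 for *Tnnt2*, -0.25 for *Tnni3*, -0.20 for *Tnnc1*, -0.32 for *Tpm1* and -0.03 for *Tnni1*. Most of this sum was *Myh7*, the β-myosin heavy chain. *Myl2*, the ventricular regulatory light chain and the only one of the 5 markers that fell, had a log2 fold change of -0.18 (adjusted p = 1.6e-05), the same as *Tnnc1*, so the scale depends on the markers chosen. The 6 atrial markers with a row summed to 594.8 to 601.1 CPM in WT and 1006 to 1030 CPM in KO, led by *Nppa*, the atrial natriuretic peptide gene. Higher past the threshold were 3 of them, *Nppa*, *Myl4* and *Myl7*, against 14.6% of all genes tested. *Nr2f1*, *Nr2f2* and *Stard10*, named after their values were seen, were not called. Their log2 fold changes were -0.23, 0.06 and -0.09 (adjusted p = 0.51, 0.536 and 0.626). The part of the atrial markers in the results was not tested.

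Markers of other cells that make tropomyosins or skeletal troponins were also measured. Their calls stand beside 15.7% lower and 14.6% higher over all genes tested. Smooth muscle markers summed to 1114 to 1170 CPM in WT and 1087 to 1105 CPM in KO (3 of 7 lower, 1 higher), and fibroblast markers to 3946 to 3992 and 3677 to 3746 CPM (4 of 8 lower). The skeletal muscle markers with a row, 6 of 15, summed to 1125 to 1147 CPM in WT and 1037 to 1051 CPM in KO (3 lower, 1 higher). Nearly all of this sum was *Ckm*, the muscle creatine kinase that the heart also expresses, and *Myod1*, *Myog* and *Pax7*, which define the skeletal lineage, have no row and were not analysed here. Endothelial markers summed to 1066 to 1071 CPM in WT and 992.9 to 1008 CPM in KO (3 of 6 lower). The 4 epicardial markers summed to 61.4 to 64.7 and 73.2 to 79.5 CPM (2 higher), the 2 erythroid markers with a row to 27.2 to 28.0 and 31.1 to 37.5 CPM (1 higher), and the 4 immune markers to 23.7 to 25.6 and 19.5 to 26.8 CPM (1 lower). The part of these cells in the tropomyosin values was not tested.

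The thin filament partners, the actins and the proteins that cap, measure or align the filament, moved in both directions. Of 16 tested, 6 were lower and 3 higher in KO, against 15.7% and 14.6% of all genes tested. Their median log2 fold change was -0.03. *Lmod2*, leiomodin 2, which elongates thin filaments at the pointed end, fell from 298 ± 15.7 to 97.8 ± 1.53 CPM (log2 fold change -1.60, adjusted p = 3.82e-22). *Nrap*, which takes part in myofibril assembly, fell by 0.44 on the log2 scale (adjusted p = 5.74e-13). *Acta1*, skeletal α-actin, rose from 25.9 ± 2.63 to 53.9 ± 1.38 CPM (log2 fold change 1.07, adjusted p = 4.17e-13). *Actc1*, cardiac α-actin and the most abundant partner, rose by 0.06 on the log2 scale (adjusted p = 0.00959), from 8864 ± 33.2 to 9218 ± 66.4 CPM, a call lost with DESeq2 (adjusted p = 0.109), edgeR's exact test, and without WT b or KO b. The counts of the list moved with the libraries: 3 were lower without WT b or KO b, and DESeq2 called 4 lower and 1 higher. The fast skeletal troponin I gene *Tnni2*, named outside the rule and after its values were seen, had 9 to 38 counts per library and a log2 fold change of -0.96 (adjusted p = 0.0132), and was not called without WT b or KO b (adjusted p = 0.0575 and 0.0753).

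Among 9 further contractile and calcium-handling genes with fetal or adult use, 5 were lower and 3 higher, against 15.7% and 14.6% of all genes tested. Their median log2 fold change was -0.10. *Myh6*, the adult-type α-myosin heavy chain of the mouse, fell from 13979 ± 487 to 10191 ± 173 CPM (log2 fold change -0.46, adjusted p = 3.85e-16), and *Atp2a2*, the calcium pump of the sarcoplasmic reticulum, fell by 0.23 on the log2 scale (adjusted p = 1.77e-10). *Myl4* and *Myl7*, the atrial light chains, rose by 1.10 and 0.75 on the log2 scale (adjusted p = 5.29e-19 and 3.52e-11). Both are also atrial markers above. *Myh7*, the β-myosin heavy chain and the most abundant gene of this list, rose by 0.05 on the log2 scale (adjusted p = 0.0268), although its WT and KO libraries overlapped. This call was lost with DESeq2 (adjusted p = 0.251), with edgeR's exact test, and without any of WT a, WT b, KO a and KO c.

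Of 23 transcription factors of cardiac contractile genes, 7 were lower and 3 higher, against 15.7% and 14.6% of all genes tested. Their median log2 fold change was -0.08, and without WT c 10 were lower and 4 higher. With DESeq2, without KO a or without KO b, 5 were lower and 3 higher. *Hand2*, a factor of ventricle formation, fell from 101 ± 9.27 to 56.6 ± 3.04 CPM (log2 fold change -0.83, adjusted p = 4.93e-12), and *Gata6*, a GATA factor, fell by 0.32 on the log2 scale (adjusted p = 8.96e-08). *Nfya* and *Nfyc*, which encode subunits of the factor that binds the NFY box, rose by 0.27 and 0.22 on the log2 scale (adjusted p = 0.000692 and 0.000773). The study itself reported unchanged *Nfya* mRNA by qRT-PCR and less NFYa protein in KO hearts at this stage. *Tbx20*, the most abundant of the list, fell by 0.14 (adjusted p = 9.38e-05). *Tead1*, which encodes a factor of the MCAT element and is named for that reason after its values were seen, fell by 0.15 on the log2 scale (adjusted p = 0.000142).

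Splicing decides which troponin T and tropomyosin forms a gene makes. Of 10 splicing regulators of muscle transcripts, 5 were lower and 0 higher, against 15.7% and 14.6% of all genes tested. Their median log2 fold change was -0.11. DESeq2 also called 0 higher, and at an unadjusted p under 0.05 the count was 0. *Rbm24* fell from 424 ± 8.6 to 357 ± 6.44 CPM (log2 fold change -0.25, adjusted p = 2.52e-07) and *Rbfox2* from 329 ± 4.26 to 285 ± 2.7 CPM (-0.21, adjusted p = 5.71e-06). The other 3 that fell were *Mbnl1*, *Mbnl2* and *Rbfox1*, named after their values were seen, and *Qk*, the most abundant, had a log2 fold change of 0.02 (adjusted p = 0.691). Whether the splice forms of *Tnnt2* or the tropomyosins moved with these regulators was not tested, since the counts are per gene.

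**Figure D5:**
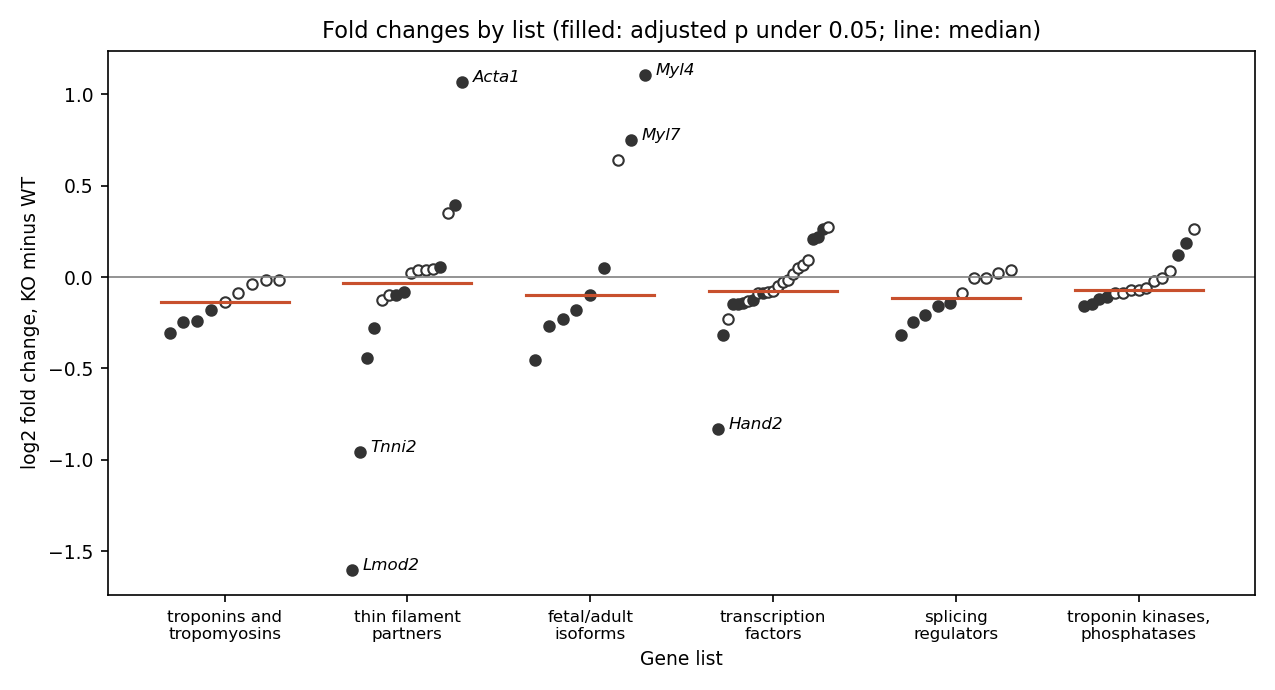
Log2 fold change, KO minus WT (vertical axis), of each tested gene of the troponin and tropomyosin group and of 5 lists, ordered by value within a list; filled points passed an adjusted p of 0.05 and red lines mark medians. The troponins and tropomyosins lie between -0.31 and -0.01, the *Tpm2* point crosses 0 without WT c or KO b, and *Lmod2* (-1.60), *Acta1* (1.07) and *Myl4* (1.10) lie far from the group.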

How the data were processed

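Total RNA of E18.5 hearts, 3 WT and 3 KO, was made into libraries with KAPA RiboErase and HyperPrep kits and read as 150 bp paired ends. The submitters' processing notes name cutadapt 1.18, HISAT2, StringTie and the build mm10; the counting program is not given in the sources used here. The deposited table lists a gene symbol with its raw count in each library, without pooling of replicates. It also holds the authors' own edgeR results for KO against WT (deposited log2 values of fold change and abundance, p-values and false discovery rates), none of which was used.

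Counts were tested with edgeR 4.0.16 in R 4.3.3: filterByExpr (13804 genes kept, 5 left out), TMM, the quasi-likelihood test on genotype alone, and adjustment by Benjamini-Hochberg over all genes tested. The deposited table holds no gene under 59 counts over the 6 libraries, so lower genes could not be seen. CPM were computed with TMM-scaled library sizes. Intervals are 95% intervals of the log2 fold change. Ratios of paralogs were compared with SciPy 1.17.1 by exact permutation over libraries. Gene models and lengths were from GENCODE M21 on GRCm38, promoters from RefSeq. The tests were run on simulated counts first.

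The members and lists were chosen with earlier results of these data known. Named genes are the members, *Pkm*, and of each list the 2 smallest adjusted p-values per direction past 0.05 and the most abundant gene, with exceptions stated. Alternatives were RLE size factors, TMM without *Rn45s*, X and Y genes left out, no filter, at least 10 counts in every library, edgeR's exact test, limma 3.58.1 voom, DESeq2 1.42.0, other gene lengths, and each library left out in turn.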

Additional observations from a re-analysis of the deposited data

How the results depend on the processing

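Over 14 alternative fits, 8 with another setting and 6 that left out 1 library each, the count of lower members was 4 except with DESeq2, where it was 3 because *Tnni3* had a log2 fold change of -0.24 with an adjusted p of 0.0575. The count of higher members was 0 in each. Over all genes the fits called 1639 to 2306 lower and 1362 to 2165 higher, the lowest counts with DESeq2. Over all genes the median log2 fold change was at most 0.0031. With single libraries left out, the log2 fold change ranged from -0.296 to -0.178 for *Tnnt2*, from -0.310 to -0.154 for *Tnni3*, from -0.211 to -0.156 for *Tnnc1* and from -0.348 to -0.240 for *Tpm1*, in each case nearest to 0 without WT c, and all 4 stayed past the threshold. *Tpm2* ranged from -0.066 to 0.067 and was above 0 without WT c (0.0666, adjusted p = 0.187) and without KO b (0.0014, adjusted p = 0.991). The *Tnni3* to *Tnni1* log2 ratio difference ranged from -0.281 to -0.154. With lengths of the union of exons or of coding sequence in place of the longest transcript, the share of *Tnni1* in troponin I was 34.64% or 51.05% in WT and 38.21% or 54.9% in KO, and that of *Tpm1* in tropomyosin was 71.78% or 82.57% in WT and 67.95% or 79.86% in KO; the length alone was changed. No paired analysis was possible because no count column shows which replicate it holds. Summing the closest pair of libraries of a group was not run, since no pair differed by less than the sampling noise, and the ratio of *Tnnt3* to *Tnnt2* was not run, since *Tnnt3* has no row. *Tnnt1* had the fewest counts of the 9 genes, 450 in its lowest library, and the largest SE of the log2 fold change (0.0634).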

Other observations

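Of 15 kinases and phosphatases that act on troponin, 4 were lower and 2 higher in KO past an adjusted p of 0.05 in edgeR's quasi-likelihood test. Of all genes tested, 15.7% were lower and 14.6% higher. The median log2 fold change of the list was -0.07. *Prkaca*, the catalytic subunit of protein kinase A, fell from 358 ± 11.3 to 323 ± 3.05 CPM (SD, n = 3; log2 fold change -0.15, adjusted p = 0.000517), and *Prkar1a*, a regulatory subunit of the same kinase and the most abundant gene of the list, fell by 0.12 on the log2 scale (adjusted p = 0.0022). *Prkaa1*, a catalytic subunit of AMP-activated protein kinase, rose from 39.9 ± 3.07 to 45.6 ± 1.48 CPM (log2 fold change 0.19, adjusted p = 0.0177), and *Prkca*, protein kinase C alpha, rose by 0.12 on the log2 scale (adjusted p = 0.025). The counts of this list moved with the libraries, to 7 lower and 1 higher without WT c and to 2 lower and 1 higher without KO c. Without KO a, 3 were lower and 0 higher. The call of *Prkaa1* was lost without WT c (log2 fold change 0.13, adjusted p = 0.0793), KO a or KO b, and that of *Prkca* with DESeq2 (adjusted p = 0.0682) and without WT a, WT b, KO a or KO c. These are transcript levels, and phosphorylation of troponin was not measured.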
